A study of Mus musculus with 25 samples.

Results

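The aryl hydrocarbon receptor (AhR) pathway and the enzymes that break down caffeine and purines were followed through 9 genes, taken by name from the deposited tables: Cyp1a1, Cyp1a2, Ahr, Arnt, Ahrr, Tiparp, Nat2, Xdh and Uox. All 9 were found among the 30524 genes listed. In mouse liver after a chemical carcinogen, 7 of them were tested by limma, 8 by edgeR and 9 by DESeq2, and none passed the threshold with caffeine, with sorafenib or with both against the carcinogen alone. For Ahrr, DESeq2 gave no adjusted p with caffeine alone or sorafenib alone against the carcinogen, nor against untreated livers. Cyp1a2, the main caffeine-degrading P450, varied more between livers of the carcinogen-only group than the group means did. Nat2 and Cyp1a1 gave calls only under some tests, in sorafenib-treated or carcinogen-only livers set against untreated ones.

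AhR is a receptor that rests in the cytoplasm with Hsp90 chaperones. Once a ligand such as a dioxin or a plant indole binds, it enters the nucleus, pairs with Arnt and switches on genes that carry its short DNA core, among them Cyp1a1, Cyp1a2, Ahrr and Tiparp. Ahrr and Tiparp then limit the response, Ahrr by competing for Arnt and Tiparp by ADP-ribosylating the receptor. In liver, Cyp1a2 is made without an added ligand, mostly by hepatocytes around the central vein, and removes methyl groups from caffeine. The methylxanthines that result are oxidised further by xanthine dehydrogenase (Xdh), acetylated in part by an arylamine N-acetyltransferase in people (the family to which mouse Nat2 belongs), and excreted. Xdh also makes urate from purines, and urate oxidase (Uox), which people lack, degrades it.

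Bulk RNA was sequenced from livers of C3H/HeJ mice, labelled male, that were 5 weeks old when received. The Untreated group (5 libraries) received saline and vehicles. The DEN group (6) received diethylnitrosamine, an alkylating carcinogen, by intraperitoneal injection at 25 mg/kg, 2 times a week for 3 weeks and then a week of rest, over 5 cycles, and later only vehicles. DEN_CAF (5), DEN_SOR (4) and DEN_CAF_SOR (5) received the same carcinogen, a month without treatment, and then 3 weeks of gavage with caffeine at 50 mg/kg 3 times a week (in tap water), with sorafenib, a kinase inhibitor used against liver cancer, at 30 mg/kg 2 times a week (in corn oil with dimethyl sulfoxide), or with both. The 20 livers outside the Untreated group were therefore all carcinogen-exposed. The labels state 6 animals per group, 25 libraries were analysed, and neither the hour of collection nor whether a piece was tumour or surrounding liver is given in the sources used here.

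Values are FPKM, reads scaled to gene length and to library total, computed here from the reads behind the deposited values. Assigned reads ran from 14750278 to 21992613 per library and the mitochondrial share from 5.65% to 34.8%. The hepatocyte marker Alb was at 14528 FPKM or more in every library. In Untreated 3, 4 and 5, labelled male, Xist, which female cells express from their silenced X chromosome, had 22879, 29770 and 13370 reads. There Xist and the Y chromosome genes Ddx3y, Eif2s3y and Kdm5d summed to 82.1, 86.4 and 46.5 FPKM, of which Xist was 79.7, 85.9 and 45.3. In Untreated 1 and 2 the sums were 29.4 and 32.4 FPKM, with Xist at 0.0106 and 0.0264. The Y genes were thus low where Xist was high. Calls against the Untreated group are therefore also given without Untreated 3, 4 and 5 where a fit allows, by limma or edgeR. The part of sex in differences from Untreated was not tested. DEN 4 stood apart: 7 of 8 markers of pericentral hepatocytes were at their lowest there, their summed level was 63.1 FPKM against 808 or more in the other 24 livers, and its 4 neutrophil markers summed to 416 FPKM. Of 6 periportal hepatocyte markers, 4 (Cyp2f2, Hal, Ass1 and Pck1) were at their lowest there too, with a sum of 414 FPKM against 907 or more elsewhere. Yet the 5 general hepatocyte markers summed to 102695 FPKM in DEN 4, against at most 56033 FPKM elsewhere. Among them Alb, Apoa1 and Trf were at their highest there (58618.5, 22553.8 and 14266.6 FPKM). DEN 3 had the next highest neutrophil sum (54.3 FPKM), the third lowest pericentral sum (846 FPKM) and a mitochondrial share of 33.4%.

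The 4 pathway targets are shown first by the DNA just before their start sites. Each line holds the 250 bases upstream, 5′ to 3′ on the gene's strand, from RefSeq for GRCm38.p6 (the deposited tables use GRCm39, so these coordinates are not comparable with theirs). Capitals mark the AhR core motif, GCGTG on the strand shown or CACGC, the same motif on the other strand.
Cyp1a1, chr9:57697363-57697612, plus strand: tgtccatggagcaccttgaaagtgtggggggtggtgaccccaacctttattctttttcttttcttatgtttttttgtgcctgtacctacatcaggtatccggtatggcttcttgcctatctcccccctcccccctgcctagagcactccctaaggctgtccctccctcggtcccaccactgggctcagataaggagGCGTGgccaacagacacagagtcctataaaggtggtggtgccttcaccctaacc
Cyp1a2, chr9:57683656-57683905, minus strand: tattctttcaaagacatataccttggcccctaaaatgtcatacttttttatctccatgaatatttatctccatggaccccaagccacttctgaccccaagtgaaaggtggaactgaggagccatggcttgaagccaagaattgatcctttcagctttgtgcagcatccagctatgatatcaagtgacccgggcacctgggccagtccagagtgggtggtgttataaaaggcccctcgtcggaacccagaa
Ahrr, chr13:74292332-74292581, minus strand: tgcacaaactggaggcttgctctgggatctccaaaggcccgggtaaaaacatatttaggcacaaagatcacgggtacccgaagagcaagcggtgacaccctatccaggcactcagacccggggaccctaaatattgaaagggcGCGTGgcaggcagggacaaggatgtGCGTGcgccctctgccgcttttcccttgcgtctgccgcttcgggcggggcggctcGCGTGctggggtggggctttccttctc
Tiparp, chr3:65528197-65528446, plus strand: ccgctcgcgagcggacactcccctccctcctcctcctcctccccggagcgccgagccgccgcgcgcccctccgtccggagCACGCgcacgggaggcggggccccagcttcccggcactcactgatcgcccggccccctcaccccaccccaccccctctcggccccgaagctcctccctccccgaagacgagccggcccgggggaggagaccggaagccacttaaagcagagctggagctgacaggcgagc
The Cyp1a1 window holds 1 core, its first base at -54 from the start. Ahrr holds 3, beginning at -107, -82 and -27, the Tiparp window holds 1 on the other strand between -170 and -166, and the Cyp1a2 window holds none. Among 32851 promoter windows of the same length, 28.16% hold at least 1 core and 2.773% hold 3 or more. Windows were found for 6 of the 9 genes. Arnt also has 1 core, at -29, and Uox none. These matches describe letters in short windows only. DNA further from the starts was not searched, so a window without a core does not mean a gene without an AhR site.

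Caffeine was the first question, since it is broken down by the enzyme Cyp1a2. By the listed gene boundaries, Cyp1a2 (ENSMUSG00000032310, GRCm39 chromosome 9, 57584220 to 57590986, minus strand) lies 4224 bases from Cyp1a1 (ENSMUSG00000032315, 57595211 to 57611107, plus strand) and points away from it. The start sites of the GRCm38.p6 windows above are farther apart, next to 57683656 for Cyp1a2 and 57697612 for Cyp1a1. The level of Cyp1a2 was 163, 256, 52.6, 9.75, 269 and 345 FPKM in DEN 1 to 6, and 148, 207, 157, 207 and 380.1 FPKM in DEN_CAF 1 to 5. The caffeine livers all lay inside the range of the DEN livers except DEN_CAF 5, which was above it, while DEN 3 and DEN 4 lay below every other liver of the study. Without caffeine but with sorafenib it was 143, 198, 213 and 117 FPKM in DEN_SOR 1 to 4, and with both drugs 234, 272, 104, 197 and 309 FPKM in DEN_CAF_SOR 1 to 5. These ranges overlapped, with 3 DEN_CAF_SOR livers above the highest DEN_SOR liver.

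Group means of Cyp1a2 were 182 ± 131 FPKM in DEN (SD, n = 6) and 219.6 ± 93.8 in DEN_CAF (SD, n = 5). The log2 difference of the limma fit was 0.86 (SE 0.60, 95% interval -0.38 to 2.10, adjusted p = 1.00), a larger value than on recovered reads, where edgeR and DESeq2 both gave 0.23. It rested on DEN 3 and DEN 4: without them the DEN mean was 258 ± 74.4 FPKM (SD, n = 4) and the difference -0.27. The 8 libraries with the highest mitochondrial shares (13.5% or more) were all numbered 3 or 4, although DEN 4 (9.58%) and Untreated 4 (6.36%) were not among them. The difference was 2.92 among libraries numbered 3 and 4 and -0.14 among the others, neither called. With sorafenib in both arms the difference was 0.36 (SE 0.66, 95% interval -1.01 to 1.73), and the average of both caffeine contrasts was 0.61 (-0.32 to 1.53), or 0.05 without DEN 3 and DEN 4. In bulk liver, fewer pericentral hepatocytes and less Cyp1a2 RNA per cell cannot be told apart.

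**Figure D1:**
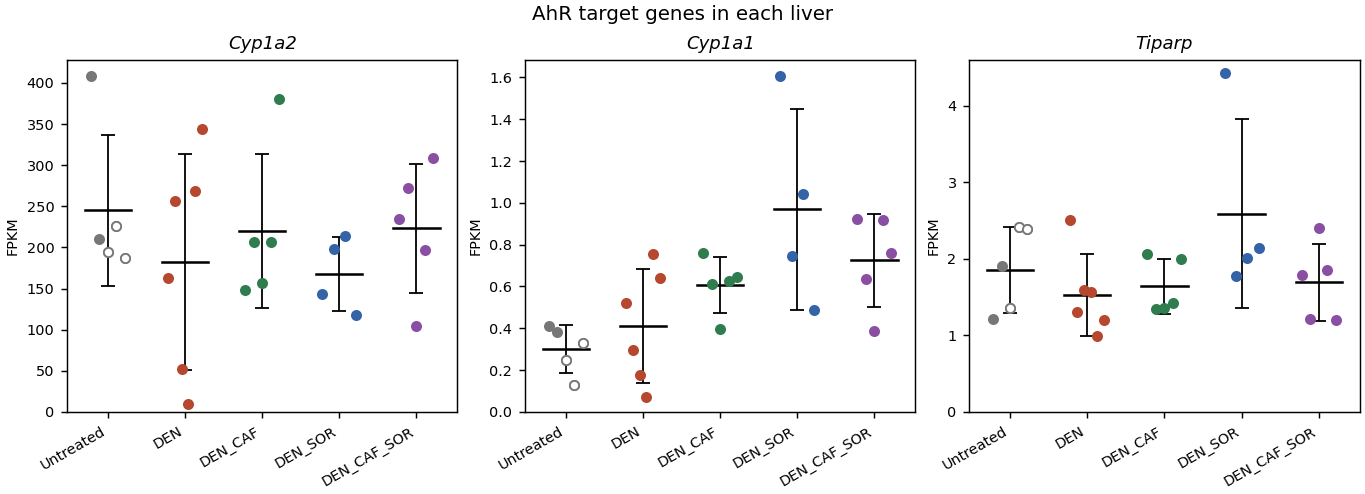
FPKM of Cyp1a2, Cyp1a1 and Tiparp in each of the 25 livers by group, on linear axes from 0. Points are single livers, open points are Untreated 3, 4 and 5 (those with Xist reads), and bars give the mean and SD. Cyp1a2 spans 9.75 to 345 FPKM within DEN, Cyp1a1 is highest in DEN_SOR 1 at 1.61 FPKM, and Tiparp is highest in the same liver at 4.43 FPKM.

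The pericentral position of Cyp1a2 was set beside markers of that zone. Their sum is unweighted and mainly Cyp2e1 (45.3 to 4078 FPKM), then Oat (7.80 to 576) and Glul (8.43 to 182). The other markers reached at most 7.31 FPKM (Tbx3). Over all 25 livers the 2 livers with the lowest Cyp1a2, DEN 4 and DEN 3, had pericentral sums of 63.1 and 846 FPKM. DEN_CAF 5 had a lower sum than DEN 3 (808 FPKM) and yet the highest Cyp1a2 of the 20 carcinogen-exposed livers. DEN 4 also had 45.3 FPKM of Cyp2e1, 8.43 of Glul and 7.80 of Oat, where the other livers had at least 554, 35.6 and 119.6 FPKM. The part of zonal make-up in the Cyp1a2 values was not tested.

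**Figure D2:**
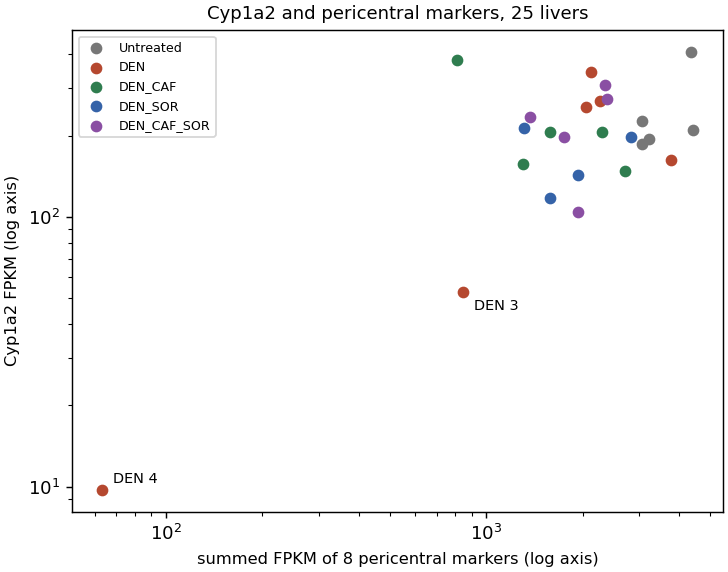
Cyp1a2 FPKM against the summed FPKM of 8 pericentral hepatocyte markers in 25 livers, both on log axes, coloured by group. The sum is mainly Cyp2e1. DEN 4 lies alone at 9.75 and 63.1 FPKM, DEN 3 is next lowest in Cyp1a2 at 52.6 FPKM, and DEN_CAF 5 combines 380.1 FPKM of Cyp1a2 with a marker sum of 808 FPKM.

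Across the 7 genes tested, limma called 0 in DEN_CAF against DEN, where 0.00785% of 12741 genes passed (1 gene, none of these). It also called 0 of 7 in DEN_CAF_SOR against DEN_SOR, in the average of both caffeine contrasts and in the caffeine by sorafenib interaction, where 0% of genes passed in each. At an unadjusted p under 0.05 the counts were 0, 0, 1 (Nat2) and 0. Run on recovered reads, edgeR called 0 members in these 4 contrasts (0% of genes in each), and DESeq2 called 0 as well (0.0586%, 0%, 0% and 0.0492% of genes). edgeR had 2 members (Tiparp and Nat2) under an unadjusted 0.05 in DEN_CAF_SOR against DEN_SOR, and DESeq2 the same 2. Both tools also had 1 (Nat2) in the average of both caffeine contrasts. The share of all genes under an unadjusted 0.05 is not given for any contrast, so these counts are a description only. The median log2 difference of the 7 genes was 0.09 for DEN_CAF against DEN and 0.15 for DEN_CAF_SOR against DEN_SOR, beside 0.02 and 0.03 over all genes tested.

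**Figure D3:**
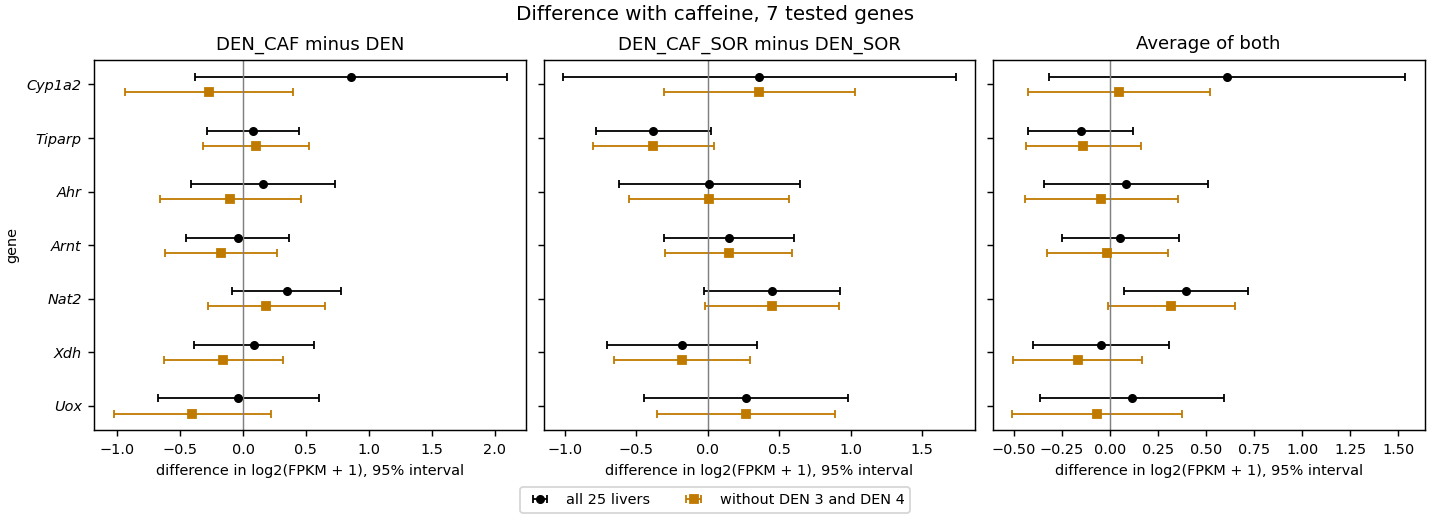
Log2(FPKM + 1) differences with caffeine for the 7 tested genes, without sorafenib, with sorafenib and averaged. Black circles are fits of all 25 livers, orange squares fits without DEN 3 and DEN 4, and lines are 95% intervals from limma. With all livers the only interval clear of 0 is that of Nat2 in the average (0.40), and it includes 0 without DEN 3 and DEN 4. Cyp1a2 moves from 0.86 to -0.27 in the left panel when the 2 livers are left out.

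The other direct AhR targets are the low-level ones. Cyp1a1, the classic inducible P450 of the pathway, had 4 to 90 reads per library and reached 1 FPKM in 2 of 25 livers, so it was under the filter of the limma fit and was tested by edgeR on reads. It had 18, 18, 11, 7 and 15 reads in Untreated 1 to 5 (0.411, 0.383, 0.247, 0.130 and 0.327 FPKM), and 23, 15, 9, 4, 42 and 31 in DEN 1 to 6 (0.522, 0.298, 0.175, 0.0728, 0.756 and 0.641 FPKM). DEN_CAF livers had 0.759, 0.610, 0.395, 0.628 and 0.646 FPKM. These sat inside the DEN range but for DEN_CAF 1, which was just above the highest DEN liver. DEN_SOR livers had 1.61, 0.746, 1.04 and 0.487 FPKM, and DEN_CAF_SOR livers 0.924, 0.636, 0.386, 0.918 and 0.758 FPKM. All 4 sorafenib livers were above all 5 Untreated ones, and the group means stood in the order Untreated (0.300 ± 0.114 FPKM), DEN (0.411 ± 0.271), DEN_CAF (0.607 ± 0.132), DEN_CAF_SOR (0.725 ± 0.224) and DEN_SOR (0.970 ± 0.481). Neighbouring means differed by less than the larger of their SDs.

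By edgeR, Cyp1a1 differed by 0.54 in DEN_CAF against DEN (adjusted p = 1.00), by -0.39 in DEN_CAF_SOR against DEN_SOR (0.953) and by 1.21 in DEN_SOR against DEN (0.567). Without DEN 3 and DEN 4 the first was 0.12 and the last 0.79. Against the Untreated group, a comparison added once values had been seen, DEN_SOR was 1.53 higher on the log2 scale with an adjusted p of 0.0536 by edgeR, just short of the threshold. DESeq2 called the same difference (1.58, SE 0.47, adjusted p = 0.0135), in a comparison where it called 11.5% of all genes. Without the Xist livers it was 1.02 (edgeR adjusted p = 0.436), and without DEN_SOR 1 it was 1.22 (edgeR). Without DEN 3 and DEN 4, which are in neither group but enter the shared estimate of spread, edgeR called it (1.57, adjusted p = 0.0108, 13.7% of genes called). Cyp1a1 reads per library are few, and counting error alone is wide at this depth.

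Ahrr, the AhR repressor (ENSMUSG00000021575, chromosome 13), was barely read: 0 to 5 reads per library and 40 in all 25. Reads were 1, 5, 0, 1 and 0 in Untreated, 0, 2, 1, 1, 1 and 3 in DEN, 4, 0, 2, 4 and 1 in DEN_CAF, 0, 0, 3 and 0 in DEN_SOR and 5, 1, 0, 2 and 3 in DEN_CAF_SOR. A count of 0 allows up to 3 reads, and most libraries lie at or under that floor, so no fold is given and no difference was detectable at this depth. Its level was the lowest of the 9 genes.

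Tiparp, the ADP-ribosylating enzyme that feeds back on AhR (ENSMUSG00000034640, chromosome 3), was low but readable, with 83 to 388 reads. It was 2.51, 1.31, 1.59, 1.57, 0.99 and 1.20 FPKM in DEN, and 2.07, 1.34, 1.36, 1.43 and 2.00 in DEN_CAF. The groups overlapped (log2 difference 0.08, 95% interval -0.29 to 0.44). With sorafenib it was 4.43, 1.78, 2.01 and 2.15 FPKM in DEN_SOR and 1.79, 1.21, 2.41, 1.86 and 1.20 in DEN_CAF_SOR. DEN_SOR 1 was the highest of all 25 livers and the other 3 sorafenib livers lay within the range of the DEN livers. DEN_SOR against DEN gave 0.48 (SE 0.19, limma adjusted p = 0.769), or 0.26 without DEN_SOR 1. Caffeine added to sorafenib gave -0.38 (SE 0.20, 95% interval -0.78 to 0.02, limma adjusted p = 1.00), or -0.16 without that liver. On recovered reads of all livers, edgeR gave 0.76 and -0.60 for these contrasts and DESeq2 0.77 and -0.62, none called. Untreated livers stood at 1.86 ± 0.560 FPKM (SD, n = 5), between the other means.

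The receptor and its partner come next. Ahr (ENSMUSG00000019256, chromosome 12) was 6.83, 6.52, 7.71, 4.92 and 5.15 FPKM in Untreated and 6.85, 6.06, 5.39, 2.06, 5.99 and 7.68 in DEN. In the drug arms it was 7.39, 4.95, 5.33, 4.55 and 9.27 in DEN_CAF, 6.49, 6.58, 11.3 and 2.99 in DEN_SOR, and 7.40, 8.62, 3.10, 5.49 and 8.74 in DEN_CAF_SOR. All groups overlapped, and the lowest liver was again DEN 4. The difference with caffeine was 0.16 (95% interval -0.41 to 0.73) without sorafenib and 0.01 (-0.62 to 0.64) with it. Group means lay between 5.67 ± 1.94 FPKM in DEN and 6.84 ± 3.42 in DEN_SOR, and these differed by less than the SD of either group.

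Arnt, the partner that AhR shares with hypoxia factors (ENSMUSG00000015522, chromosome 3), was 3.72, 6.01, 2.84, 3.97, 4.74 and 4.71 FPKM in DEN and 4.01, 5.25, 3.48, 2.58 and 5.75 in DEN_CAF, a log2 difference of -0.04 (95% interval -0.45 to 0.36). DEN_SOR was 2.99, 3.44, 3.43 and 1.74, and DEN_CAF_SOR 4.32, 4.26, 2.43, 2.08 and 3.62. Of the sorafenib livers 3 sat low in the DEN range, and DEN_SOR 4 was the lowest of the study. DEN_SOR against DEN was -0.45 (SE 0.21, 95% interval -0.89 to -0.02, limma adjusted p = 0.793), where limma called 0 of 7 members and 0% of all genes. An unadjusted limma p under 0.05 was met by Arnt and Tiparp, and the share of all genes meeting it is not given. Untreated livers ranged from 2.64 to 5.28 FPKM.

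**Figure D4:**
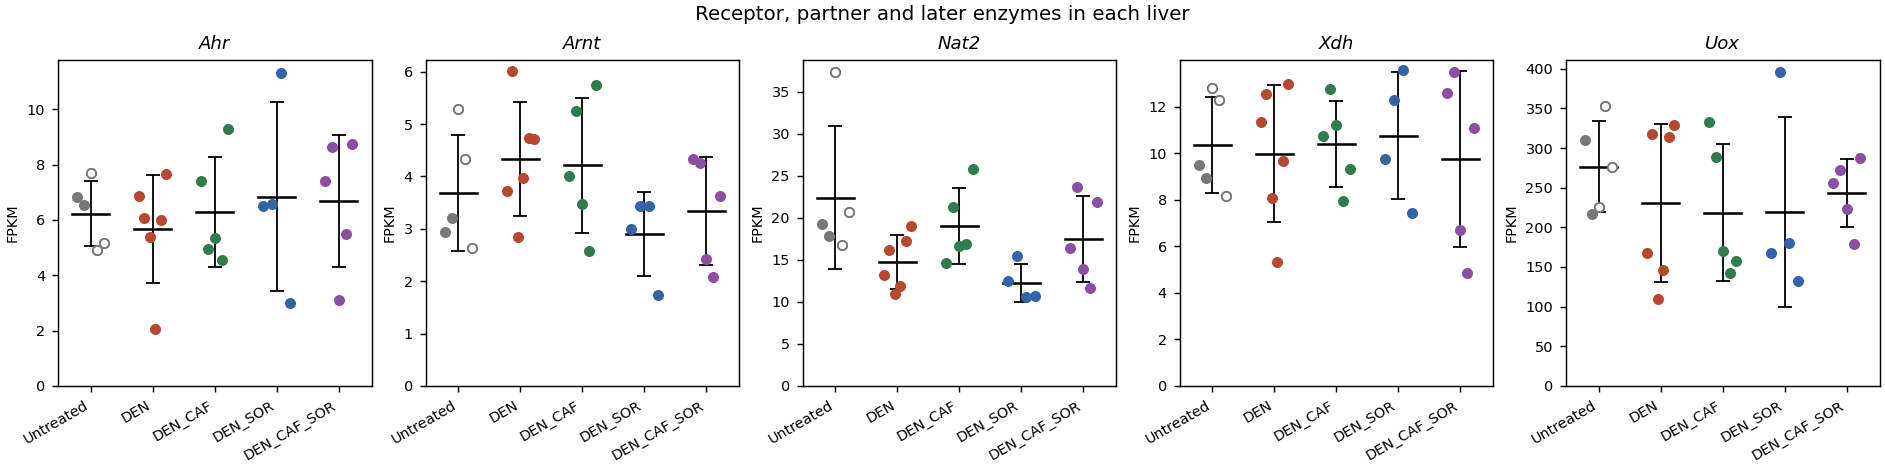
FPKM of Ahr, Arnt, Nat2, Xdh and Uox in each liver by group, on linear axes from 0, with single livers as points, Untreated 3, 4 and 5 as open points and bars for the mean and SD. Nat2 is highest in Untreated 3 at 37.4 FPKM and its 4 DEN_SOR livers lie between 10.6 and 15.5 FPKM, below all 5 Untreated livers.

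Among the later enzymes Nat2 varied most with the groups. Nat2 (ENSMUSG00000051147, chromosome 8, 67947510 to 67955236, plus strand) was 19.3, 17.8, 37.4, 16.8 and 20.7 FPKM in Untreated and 13.2, 16.2, 10.9, 11.9, 17.2 and 19.1 in DEN. DEN_SOR had 12.4, 15.5, 10.6 and 10.6 FPKM. All 4 sorafenib livers were below every Untreated liver, while 2 of the 6 DEN livers (DEN 5 and DEN 6) reached into the Untreated range. With caffeine it was 14.6, 21.4, 16.7, 16.9 and 25.8 in DEN_CAF and 16.4, 23.7, 13.9, 11.7 and 21.9 in DEN_CAF_SOR. Those arms overlapped both the Untreated and the carcinogen-only livers.

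DEN_SOR against Untreated gave -0.77 for Nat2 (SE 0.23, 95% interval -1.25 to -0.29, limma adjusted p = 0.0731), so limma called 0 of 7 members where it called 2.62% of all genes. With effective library sizes (TMM) the same fit gave -0.85 and a limma adjusted p of 0.0300, and 4.23% of genes were called. edgeR gave -0.94 (adjusted p = 0.0203, 6.99% of genes called) and DESeq2 -0.90 (adjusted p = 0.00488). The edgeR call was lost without Untreated 3, DEN_SOR 1 or DEN_SOR 3 (highest adjusted p 0.0597), and without the 3 Xist livers edgeR gave -0.82 (adjusted p = 0.171). Without DEN 3 and DEN 4 the limma value stayed at -0.77 and was called (adjusted p = 0.0423, 6.88% of genes called). It was called by edgeR too (-0.92, edgeR adjusted p = 0.00967, 13.7% of genes called). DEN 3 and DEN 4 are in neither group but enter the shared estimate of spread. Fits without them were added once values had been seen, so these calls are no separate evidence. The sum of 5 bile duct (cholangiocyte) markers also differed in this contrast. It was 6.82 to 13.1 FPKM in Untreated and 18.7 to 189 FPKM in DEN_SOR. Spp1 had by far the largest values in it (5.53 to 165 FPKM over all livers). Krt19, Epcam, Sox9 and Krt7 reached at most 14.2, 6.72, 2.49 and 2.21 FPKM, and whether each of them moved was not tested. Pericentral sums, mainly Cyp2e1, were 3063 to 4421 FPKM in Untreated and 1316 to 2837 FPKM in DEN_SOR, also without overlap. Bile duct sums were above the Untreated range in the other carcinogen groups too (16.7 to 86.1 FPKM in DEN, 36.3 to 117 in DEN_CAF and 27.6 to 162 in DEN_CAF_SOR), and pericentral sums were below it in every carcinogen-exposed liver but DEN 1. The part of either marker set in the Nat2, Cyp1a1 and other differences from Untreated was not tested.

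In DEN against Untreated, limma called 0 of 7 members beside 2.04% of all genes. Nat2 was -0.53 (SE 0.21, 95% interval -0.97 to -0.10, limma adjusted p = 0.191), edgeR gave -0.68 (adjusted p = 0.0537, 4.89% of genes called) and DESeq2 called it at -0.65 (adjusted p = 0.0332, 8.55% of genes called). Without Untreated 3 the limma value was -0.34, and without the Xist livers it was also -0.34 (limma adjusted p = 0.620) and by edgeR -0.56 (adjusted p = 0.319). For Cyp1a2 the same contrast was -1.04 (SE 0.60, limma adjusted p = 0.409), -0.55 by edgeR and 0.09 (limma) without DEN 3 and DEN 4. Among libraries numbered 3 and 4 alone limma called it (-3.13, adjusted p = 0.0432, 4.32% of genes called), but both Untreated livers there are Xist livers, so no value without them can be given. Cyp1a2 in Untreated was 408, 210.0, 195, 226 and 187 FPKM, of which the first alone lay above every DEN liver.

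The average caffeine difference for Nat2 was 0.40 (SE 0.16, 95% interval 0.07 to 0.72), from 0.35 without and 0.45 with sorafenib. It missed the threshold after adjustment over all genes (limma adjusted p = 1.00, edgeR 1.00). The interaction was 0.10 (95% interval -0.54 to 0.75). By limma without DEN 3 and DEN 4, the average fell to 0.32 (95% interval -0.01 to 0.65). In that fit DEN_CAF against DEN fell to 0.19 (-0.28 to 0.65). Means were 14.8 ± 3.23 FPKM in DEN (SD, n = 6), 19.1 ± 4.50 in DEN_CAF (n = 5), 12.3 ± 2.28 in DEN_SOR (n = 4) and 17.5 ± 5.16 in DEN_CAF_SOR (n = 5).

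Xdh, which turns hypoxanthine and xanthine into urate (ENSMUSG00000024066, chromosome 17), was the steadiest of the 9 genes, with a coefficient of variation of 24.9% over 25 livers. It was 9.50, 8.95, 12.8, 12.3 and 8.17 FPKM in Untreated, 11.3, 12.6, 8.05, 5.32, 9.68 and 12.95 in DEN, and 10.7, 12.8, 11.2, 7.92 and 9.32 in DEN_CAF. DEN_SOR was 9.74, 12.3, 13.6 and 7.42, and DEN_CAF_SOR 12.6, 13.5, 6.72, 4.85 and 11.1. No group stood apart. Its caffeine differences were 0.09 (95% interval -0.39 to 0.56) and, with sorafenib, -0.18 (-0.71 to 0.35), and against Untreated the 4 carcinogen groups differed by -0.14 to 0.04.

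Uox, the last enzyme of the chain and the other gene at a high level (ENSMUSG00000028186, chromosome 3, 238 ± 80.3 FPKM over all livers), was 310.5, 217, 225, 353 and 277 FPKM in Untreated. It was 168, 318, 109, 146, 313 and 329 in DEN, 333, 289, 170.1, 143 and 157 in DEN_CAF, 167, 396, 179.9 and 132 in DEN_SOR, and 255, 273, 223, 179 and 287 in DEN_CAF_SOR. DEN 2, 5 and 6 lay inside the Untreated range and DEN 1, 3 and 4 below it. Caffeine against DEN was -0.04 (95% interval -0.68 to 0.60), caffeine added to sorafenib 0.27 (-0.44 to 0.98), and DEN against Untreated -0.36 (SE 0.31), or 0.0031 without DEN 3 and DEN 4.

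Sorafenib added to caffeine (DEN_CAF_SOR against DEN_CAF) gave 0 of 7 calls by limma, with 0% of genes called, and log2 differences from -0.26 (Arnt) to 0.22 (Uox). Both drugs against DEN gave 0 of 7 with 0% of genes called. The largest of those differences was Cyp1a2 at 0.88 (SE 0.60), which was 0.30 by edgeR and -0.25 by limma without DEN 3 and DEN 4. At an unadjusted p under 0.05 limma had 0 members in each of these contrasts. Against Untreated, limma called 0 of 7 in DEN_CAF (1.01% of genes) and 0 of 7 in DEN_CAF_SOR (0.494%). Contrasts that share DEN or Untreated livers are not independent of each other.

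The wider pathway was read through 4 further lists of 49 genes, of which 42 were tested. In the caffeine contrasts and their interaction limma called 0 of the 42. Among AhR target genes outside the 9 (11 genes, 9 tested), 8 were positive in DEN_CAF against DEN and 6 in DEN_CAF_SOR against DEN_SOR, with medians of 0.34 and 0.02 beside 0.02 and 0.03 for all genes. The share of positive genes among all genes tested is not given. The Cyp1a2 difference in DEN_CAF against DEN rested on the DEN livers with the lowest Cyp1a2. Whether the values of this list rest on the same livers was not tested. The largest caffeine averages of the list were those of Nqo1, a quinone reductase, and Ugdh, which makes UDP-glucuronic acid (0.54 and 0.36). Nqo1 was 3.75 ± 1.98 FPKM in DEN and 9.30 ± 7.47 in DEN_CAF (difference 1.00, SE 0.41, limma adjusted p = 1.00) but 0.07 with sorafenib. Ugdh was 36.5 ± 23.4 and 42.3 ± 9.11 FPKM (0.46, SE 0.42). Cyp1b1 and Aldh3a1, both AhR-inducible in other tissues, were under the filter.

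Gsta1, a glutathione transferase of the AhR and NRF2 target sets, was the only gene of that list called. It was higher in every carcinogen group against Untreated. It had 0.333, 0, 1.96, 7.37 and 1.78 FPKM in Untreated 1 to 5, with the 3 higher values in the Xist livers, and group means of 14.8 ± 8.94 in DEN, 16.7 ± 12.6 in DEN_CAF, 20.2 ± 8.45 in DEN_SOR and 15.8 ± 12.7 in DEN_CAF_SOR. The log2 differences were 2.48, 2.60, 3.01 and 2.45 (limma adjusted p = 0.0136, 0.0176, 0.00632 and 0.0430). Leaving out 1 library at a time kept the call in DEN and DEN_SOR, lost it for DEN_CAF in 3 of 25 fits and for DEN_CAF_SOR in 13 of 25. Without the Xist livers it was 3.58, 3.70 and 4.11 in DEN, DEN_CAF and DEN_SOR, and 3.55 in DEN_CAF_SOR, where the call was lost (limma adjusted p = 0.0583). Reads may be shared with close relatives such as Gsta2. The bile duct and pericentral marker sums given above for Nat2 moved in these contrasts as well, and their part in the Gsta1 differences was not tested.

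Of the receptor's chaperones and partners (11 genes, 10 tested), only Hsp90aa1, the stress-inducible Hsp90, was called, in DEN_SOR against Untreated (22.5 ± 6.56 to 52.1 ± 21.0 FPKM, 1.15, SE 0.24, limma adjusted p = 0.0119). All 4 DEN_SOR livers (35.8 to 82.2 FPKM) were above all 5 Untreated ones (14.4 to 31.8). The call was lost without DEN_SOR 3, the highest of them (0.91, adjusted p = 0.0685) and without the Xist livers (1.43, limma adjusted p = 0.0503), and with caffeine added to sorafenib the difference was -0.42 (SE 0.24, not called).

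Of the P450 electron donors, other drug oxidases and acetyltransferases (11 genes, 10 tested), none was called in any of the 11 contrasts. Aox1 and Aox3, aldehyde oxidases, had the largest caffeine averages, 0.50 (SE 0.33) and 0.59 (SE 0.43). Aox3 was 43.6 ± 29.2 FPKM in DEN and 57.6 ± 35.0 in DEN_CAF, with overlapping ranges.

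Of purine breakdown and urate handling (16 genes, 13 tested), Abcg2, a transporter that exports urate and drugs, was called in DEN against Untreated (3.79 ± 0.653 to 7.18 ± 2.27 FPKM, 0.73, SE 0.19, limma adjusted p = 0.0370). The call was lost in 6 of 25 fits that left out 1 library. These were without Untreated 3, 4 or 5 or without DEN 2, 5 or 6 (highest adjusted p 0.0914). Without the 3 Xist livers together it was 0.52 (limma adjusted p = 0.415). Slc2a9, a urate transporter, and Ada, adenosine deaminase, had the largest caffeine averages of this list, 0.30 (SE 0.12) and 0.24 (SE 0.11), neither called. Ada was 0.918 ± 0.235 FPKM in DEN_SOR and 1.47 ± 0.0950 in DEN_CAF_SOR.

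Genes whose levels followed Cyp1a2 most closely across the 20 carcinogen-exposed livers were Ugt2b34, Gclm, Necab1, Ugdh and Pgrmc1 (Spearman rho 0.950, 0.946, 0.934, 0.931 and 0.931). Without DEN 4 the same 5 had rho between 0.919 and 0.949 over 19 livers. For Tiparp the 5 closest were Abcf1, Fgl1, Rnf166, Gpi1 and Orm3 (0.887, 0.857, 0.854, 0.850 and 0.836). These rank correlations were picked as the highest of all genes tested, the livers share their library make-up, and they are given as a description.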

How the data were processed

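Liver RNA was measured in 25 libraries. Reads were aligned with HISAT2 2.0.5 and counted with featureCounts 1.5.0-p3 against GRCm39 (submitters' processing notes). Neither the gene annotation nor the strand setting is stated there, which leaves overlapping genes uncertain. File names say FPKM, but every value the authors deposited is a signal, namely whole reads over a size factor of its library. Reads were recovered from all values (100% whole within 0.01), and FPKM was computed here from reads, library total and listed gene length, because the planned tests assumed FPKM.

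Genes at 1 FPKM or more in 4 or more libraries (12741 of 24774 listed in all 5 tables) entered a limma fit (limma 3.58.1 under R 4.3.3) of log2(FPKM + 1), in 1 fit of 25 libraries (20 residual degrees of freedom, trend). P-values were two-sided, Benjamini-Hochberg adjusted over all genes per contrast, with a threshold of 0.05. Differences are on that scale, which understates changes of low genes. edgeR 4.0.16 (quasi-likelihood, 17159 genes) and DESeq2 1.42.0 were run on the recovered reads, and the fitting steps were tested on simulated data. An adjusted p without a tool's name is from limma.

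Of 11 contrasts, the 3 of drug groups against Untreated were added once values had been seen. The genes and lists were chosen with earlier results of these data known. Named list genes are those called, plus the 2 with the largest average caffeine difference per list, of which 1 is not reported here. Each library was taken as 1 mouse, and p-values measure only the spread between these libraries. Library numbers were not taken as pairs: over 46 same-number pairs, deviations correlated at -0.28 to 0.54 (median 0.13, against -0.03 over 203 other pairs) and 25 exceeded 0.1.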

Additional observations from a re-analysis of the deposited data

Results flagged for a closer look

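Of the 45 sets of livers checked (9 genes in 5 groups), 5 held a liver whose gap to its nearest neighbour was large for its group, where chance gives about 1 in 20. Cyp1a2 in Untreated 1 was 408 FPKM, against 187 to 226 in the other 4 Untreated livers. Nat2 in Untreated 3, a liver with Xist reads, was 37.4 FPKM, against 16.8 to 20.7 in the others. Ahr in DEN 4 was 2.06 FPKM, against 5.39 to 7.68 in the other 5 DEN livers. Ahrr was 0.0314 FPKM in Untreated 2 (5 reads) and 0.0174 FPKM in DEN_SOR 3 (3 reads, with 0 in the other 3 livers), both at the limit of the depth. Without Untreated 1 the mean of Cyp1a2 in Untreated was 204 ± 17.2 FPKM (SD, n = 4), and without Untreated 3 that of Nat2 was 18.6 ± 1.69 FPKM (SD, n = 4). Without DEN 4 the mean of Ahr in DEN was 6.39 ± 0.885 FPKM (SD, n = 5).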

How the results depend on the processing

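Over 88 results for single genes and 3492 values under other settings, 3441 kept their direction and side of the threshold (or changed sign where the first value was under 1 SE and uncalled, 210 of them), 39 passed the threshold newly and 12 reversed. Members called in DEN_SOR against Untreated were 0 by the reported fit (2.62% of all genes called) and 1 with TMM sizes (Nat2, 4.23%). They were 1 by edgeR (Nat2, 6.99%) and 2 by DESeq2 (Cyp1a1 and Nat2, 11.5%). Without DEN 3 and DEN 4 they were 1 by limma (Nat2, 6.88%) and 2 by edgeR (Cyp1a1 and Nat2, 13.7%). Members called in DEN against Untreated were 1 by DESeq2 (Nat2, 8.55%) and 1 among libraries numbered 3 and 4 (Cyp1a2, -3.13, 4.32%). Leaving out 1 library, edgeR called 0 to 2 members in the first contrast and 0 to 1 in the second. The share of all genes is not given for those fits. Cyp1a2 reversed without DEN 3 and DEN 4: DEN_CAF against DEN to -0.27 (limma) and -0.26 (edgeR), both drugs against DEN to -0.25 and -0.19, and DEN against Untreated to 0.0906. Uox in DEN against Untreated went to 0.00310 in the same setting. Among libraries not numbered 3 or 4, Cyp1a2 in DEN_CAF against DEN was -0.14, Uox in DEN against Untreated 0.0380, Arnt in DEN_SOR against Untreated 0.10 and Nat2 in DEN_CAF_SOR against Untreated 0.0837. Among libraries numbered 3 and 4, Tiparp in DEN_CAF_SOR against DEN_SOR was 0.0206 and its interaction 0.13. The cause was not tested beyond the libraries left out. With the library number as a replicate block, 0 members were called in every contrast, which changed no call; same-number libraries are not known to share an animal or day. Genes listed in all tables but at few reads (Cyp1a1, Ahrr) are limited by depth.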
